A study of Triticum aestivum with 12 samples.

Results

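Phenylalanine ammonia-lyase (PAL) and cinnamoyl-CoA reductase (CCR) genes of bread wheat, cultivar Najran, were followed in roots and shoots of plants watered with salt or with tap water. The genes were taken by their description in the deposited comparison tables, and 34 of the 83486 genes in the normalized count table carried one of the 2 enzyme names, 31 as PAL and 3 as CCR. A description is given for 5159 of the 24878 genes in those tables, and each of the 4 tables lists only genes that the authors had called different in that comparison. The 34 genes were therefore chosen by a call: 32 of them stood in at least 1 of the 2 tables that compare shoots with roots, and the other 2, PAL gene TraesCS2D02G204700 and CCR gene TraesCS3A02G229700, stood only in tables that compare salt with control. The table of salt-treated against control shoots held 16 of the 34 and that of roots 2. PAL and CCR genes that were never called, or that have no description, are not counted here.

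Salt-treated shoots, control shoots, salt-treated roots and control roots were each measured in 3 libraries. After germination, the salt treatment was water with NaCl at 200 mM, and controls got tap water alone (0 mM NaCl). Plants were in their vegetative stage at harvest, after 4 weeks. All plants were of the cultivar Najran, and each library pooled a duplicate of plants. RNA of a whole organ was sequenced, so fewer cells of a type and less RNA per cell cannot be told apart.

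PAL opens the phenylpropanoid pathway by removing ammonia from phenylalanine, which leaves trans-cinnamic acid, and in grasses some PAL enzymes also act on tyrosine. CCR acts further on, where it reduces hydroxycinnamoyl-CoA esters to aldehydes, the first step that is committed to the monolignols from which lignin is made. Lignin stiffens and seals the walls of xylem and other cells, and the same pathway supplies flavonoids and many defence compounds.

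The 31 PAL genes lay on 11 chromosomes, 9 on the A genome, 16 on the B genome and 6 on the D genome (IWGSC wheat genome, Ensembl Plants annotation). Most stood in rows of neighbours, counted as 1 row where the gap was under 1 Mb. The longest row held 5 genes on chromosome 1B within 180.4 kb, TraesCS1B02G048100 to TraesCS1B02G048500. Rows of 4 genes stood on chromosome 2A within 101.8 kb, TraesCS2A02G380800 to TraesCS2A02G381100, and on chromosome 2B within 292.2 kb, TraesCS2B02G398000 to TraesCS2B02G398400. Chromosome 6B held 3 genes within 537.4 kb, and pairs stood on 1A, 1D, 2B and 5B. Each of the 3 CCR genes stood alone, on 3A, 3B and 5A. How alike the copies are in sequence was not measured here. Reads that fit more than 1 copy can be divided among them by the estimation, so the level of a single copy is less certain than the sum over copies.

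The normalized counts of a library summed to between 18565098 and 19748450 in salt-treated shoots, 20513240 and 25371113 in control shoots, 13890189 and 14183797 in salt-treated roots and 14878135 and 15863307 in control roots. Chlorophyll a-b binding proteins, 65 genes, summed to between 372260 and 498174 normalized counts in shoot libraries and between 219 and 935 in root libraries, as the labels have it. Of the root markers, 4 high-affinity nitrate transporter genes summed to 3.7 to 53.7 in shoots and 175 to 720 in roots, 2 root hair genes to 6.2 to 21.1 in shoots and 11.5 to 368 in roots, and 9 nicotianamine synthase genes were higher in shoots, at 3726 to 8887 against 688 to 2595 in roots. No Casparian strip membrane protein gene was found among the descriptions.

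All 31 PAL genes had a lower mean normalized count in salt-treated shoots than in control shoots, and 30 of the 31 had a lower mean in salt-treated roots than in control roots. Their normalized counts summed to 9974, 14087 and 12777 in salt-treated shoots, against 19578, 23371 and 18890 in control shoots. In roots the sums were 56216, 82274 and 67822 in salt-treated plants, against 84309, 107108 and 87653 in control plants. The groups did not overlap in either organ, and every shoot sum lay below every root sum. PAL genes took 0.0511% to 0.0713% of all normalized counts in salt-treated shoots, against 0.0772% to 0.114% in control shoots. Among roots they took 0.405% to 0.580% in salt-treated plants, against 0.553% to 0.685% in control plants, which overlapped.

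**Figure D1:**
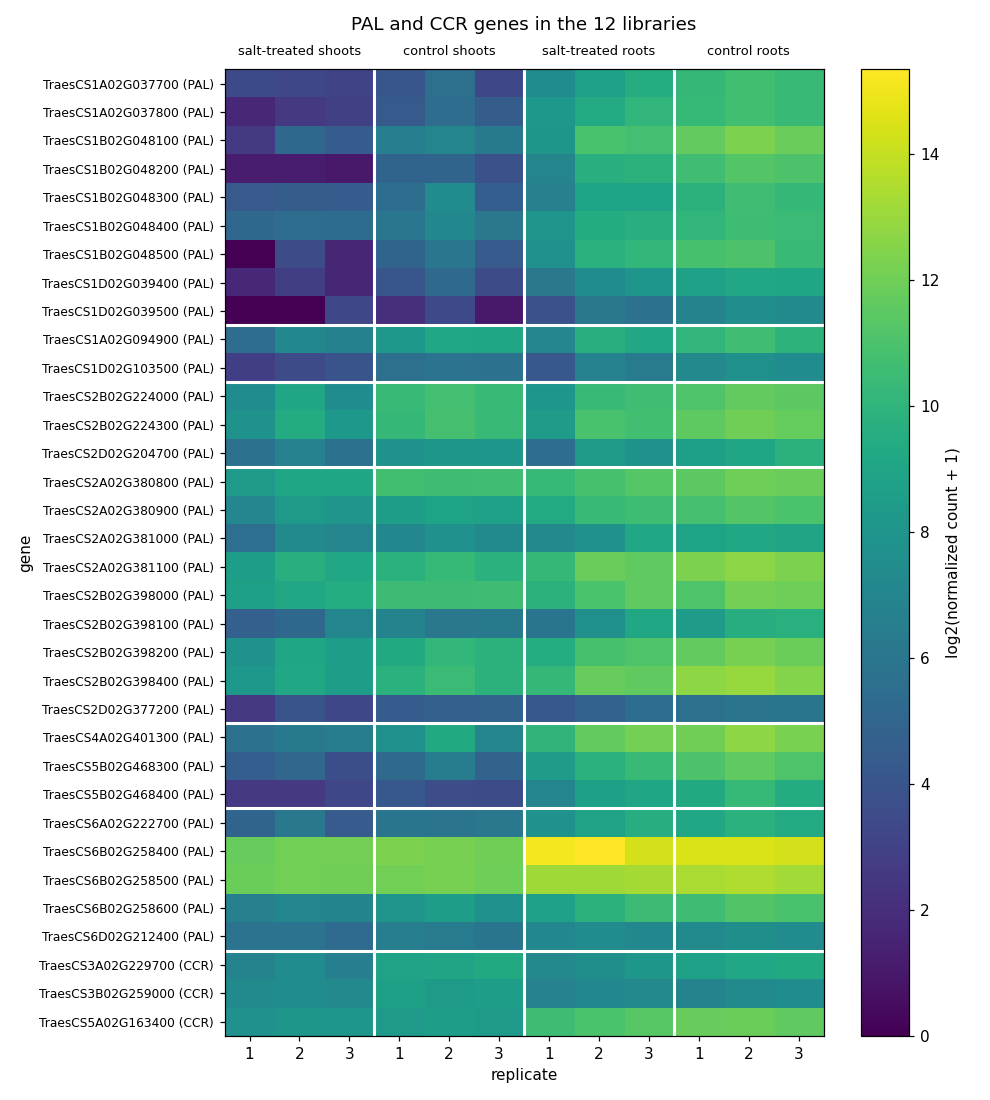
Heat map of log2(normalized count + 1) of the 31 PAL and 3 CCR genes (rows, in order of chromosome position within sets parted by white lines) in the 12 libraries (columns, replicates 1 to 3 of each group). The PAL rows of chromosomes 1A, 1B and 1D at the top and those of 4A and 5B are dark in shoots and bright in roots, while TraesCS6B02G258400 and TraesCS6B02G258500 are bright in all 12 libraries.

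A normalized count grows with the length of the transcript, and transcript lengths were not used here, so the counts do not rank the genes by number of transcripts. The highest mean normalized count of the family over the 12 libraries was that of TraesCS6B02G258400 (chromosome 6B, 465148031 to 465154487, minus strand), a PAL gene with 3560, 4242 and 4549 normalized counts in salt-treated shoots and 5017, 4743 and 4090 in control shoots. In roots it had 36166, 41561 and 21273 in salt-treated plants and 23036, 22749 and 20532 in control plants. The salt-treated and control libraries overlapped in both organs. It was the only PAL gene with a log2 fold change above 0 in roots, at 0.52 with a standard error (SE) of 0.29 (limma, Benjamini-Hochberg adjusted p = 0.256), and in shoots the value was −0.17.

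Its neighbour TraesCS6B02G258500 (465675009 to 465679798) had 3736, 4292 and 4065 normalized counts in salt-treated shoots and 4326, 4704 and 3946 in control shoots. The root values were 9167, 9225 and 9741 in salt-treated plants and 10763, 11813 and 9601 in control plants. These groups overlapped too, with log2 fold changes of −0.10 in shoots and −0.19 in roots. With each library scaled to the same total, the shoot values of both genes turned to 0.04 for TraesCS6B02G258400 and 0.11 for TraesCS6B02G258500.

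TraesCS6B02G258400 took a larger share of the PAL counts under salt. The share was 35.7%, 30.1% and 35.6% in salt-treated shoots and 25.6%, 20.3% and 21.7% in control shoots. In roots it was 64.3%, 50.5% and 31.4% in salt-treated plants and 27.3%, 21.2% and 23.4% in control plants. The ranges did not overlap in either organ. Without the genes on 6A, 6B and 6D, the remaining 26 PAL genes summed to 2490, 5296 and 3982 normalized counts in salt-treated shoots, against 9824, 13413 and 10516 in control shoots. The same 26 genes summed to 10068, 29922 and 34456 in salt-treated roots, against 48263, 69146 and 54767 in control roots.

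The comparison of salt with control asks which genes of the pathway entry respond to salinity in each organ. For each organ limma was run on log2(normalized count + 1), with all genes with at least 10 normalized counts in at least 3 of the 6 libraries, and a gene was called at an adjusted p below 0.01 with a log2 fold change of 1 or more in size. A p is given only for the 32 genes that stood in a table of shoots against roots. The other 2 were chosen by the salt comparison alone. The tables of shoots against roots share their libraries with the salt comparison, so such a p is not free of the choice. Low salt-treated shoots, for example, could put a gene in the table of salt-treated plants. Of the organ tables, TraesCS2B02G224000, TraesCS2B02G224300, TraesCS1A02G094900 and TraesCS2D02G377200 stood only in that one.

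In shoots, 29 of the 31 PAL genes passed the filter, and all 29 had a log2 fold change below 0, against 51% of the 44647 genes tested. The median of the 29 was −1.42, beside −0.01 for all genes tested, and 21 lay at −1 or below, beside 9.72% of all genes. In 23 of the 31, every salt-treated shoot library lay below every control shoot library, beside 20.2% of all genes tested. These counts include TraesCS2D02G204700, which was chosen by this comparison alone. Without it 28 PAL genes were tested and all 28 lay below 0, with a median of −1.40. Of them 20 lay at −1 or below, and 22 of the 30 genes did not overlap. The 2 genes that did not pass, TraesCS1A02G037700 and TraesCS1D02G039500, overlapped between the groups. TraesCS1A02G037700 had 9.9, 8.6 and 7.5 normalized counts in salt-treated shoots and 16.3, 49.4 and 8.5 in control shoots, and TraesCS1D02G039500 had 0, 0 and 8.5 in salt-treated shoots and 3.3, 9.5 and 1.1 in control shoots.

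Called lower in salt-treated shoots were 6 of the 29 PAL genes, 1 of them chosen by this comparison alone, beside 2.99% of all genes tested. All 6 were among the 14 PAL genes in the authors' table of salt-treated against control shoots, made with DESeq2. The fitted value farthest from 0 among them was that of TraesCS1B02G048200 in the row on chromosome 1B (28322038 to 28324849). This gene had 1.2, 1.2 and 1.1 normalized counts in salt-treated shoots, against 29.3, 29.5 and 12.7 in control shoots. Every salt-treated shoot library was close to 0. The fitted log2 fold change of −3.42 (SE 0.56; adjusted p = 0.00578 by limma) moves with the pseudocount, to −1.55 where 10 was added instead of 1, and that of TraesCS2B02G224000, at −2.41, was then farther from 0.

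A pair on chromosome 2B and a gene on 2D lay lower together in salt-treated shoots. TraesCS2B02G224000 (214280956 to 214283508) had 176, 533 and 178 normalized counts in salt-treated shoots, against 1288, 1699 and 1273 in control shoots (log2 fold change −2.45, SE 0.40, adjusted p = 0.00574 by limma). Its neighbour TraesCS2B02G224300 had 224, 707 and 293 in salt-treated shoots, against 1181, 1782 and 1376 in control shoots (log2 fold change −1.98, adjusted p = 0.012 by limma). Replicate 2 was the highest salt-treated shoot library in both, and still lay below every control. Of the organ tables, both genes stood only in that of salt-treated plants. Low salt-treated shoots thus bore on their choice, and the p of each is not free of it. TraesCS2D02G204700 (156707284 to 156709989), which was chosen by its salt response in shoots, had 53.0, 109 and 52.3 in salt-treated shoots and 238, 276 and 269 in control shoots.

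On chromosomes 2A and 2B the first gene of each row of 4 was called and its row neighbours were not. TraesCS2A02G380800 (624359166 to 624362152) had 309, 549 and 541 normalized counts in salt-treated shoots, against 1648, 1546 and 1605 in control shoots (log2 fold change −1.82, SE 0.22, adjusted p = 0.00177 by limma, the lowest among the PAL genes with a p). The other 3 genes of its row had log2 fold changes from −0.94 to −0.77. TraesCS2B02G398000 (564920332 to 564923399) had 420, 562 and 713 in salt-treated shoots, against 1456, 1487 and 1553 in control shoots (log2 fold change −1.44, adjusted p = 0.00263 by limma). In its row the log2 fold changes of TraesCS2B02G398100, TraesCS2B02G398200 and TraesCS2B02G398400 were −0.77, −1.28 and −1.39. The difference between neighbours was not tested.

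The last called PAL gene was TraesCS1D02G103500 (chromosome 1D, 93102756 to 93105441), with 6.2, 11.1 and 14.9 normalized counts in salt-treated shoots against 48.8, 57.0 and 54.2 in control shoots (log2 fold change −2.29, adjusted p = 0.00576 by limma). TraesCS1A02G094900, at a like position on 1A, had 43.1, 143 and 106 in salt-treated shoots against 288, 577 and 518 in control shoots (log2 fold change −2.33, adjusted p = 0.0105 by limma). Of the organ tables it stood only in that of salt-treated plants, so this p is not free of the choice. Nearest to the fold threshold were TraesCS5B02G468400 at −1.01 and TraesCS2A02G380900 at −0.94. The calls rested on single libraries. Without control shoot replicate 2 no PAL gene was called by limma, although all 29 stayed below 0. There 17 had an unadjusted p below 0.05, counted over a set that includes TraesCS2D02G204700. Without that library the calls over all genes went down as well, to 873 against 2359 with all libraries, and 26.7% of all genes had an unadjusted p below 0.05. With all libraries, 20 of the 28 tested PAL genes from the tables of shoots against roots had an unadjusted p below 0.05, beside 30.4% of all genes. TraesCS2A02G380800 had an adjusted p between 0.000752 and 0.0107 over all alternatives, and was uncalled only without control shoot replicate 2.

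**Figure D2:**
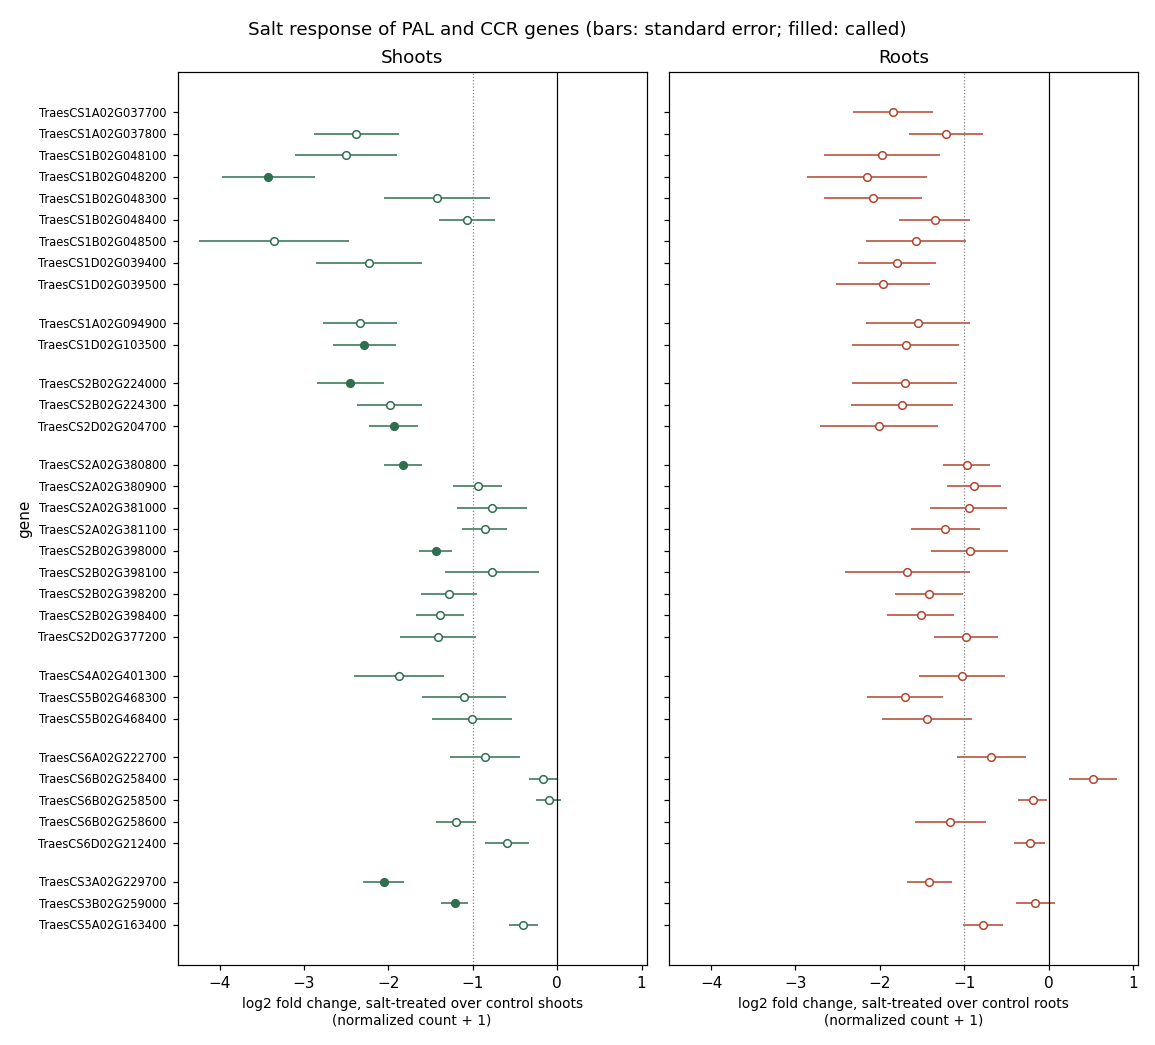
Log2 fold change of salt-treated over control shoots (left) and of salt-treated over control roots (right) for each PAL and CCR gene, from log2(normalized count + 1), with bars of 1 standard error from limma, filled points for called genes and a dotted line at −1. In shoots every point lies below 0 and 8 are filled, all of genes that stood in the authors' table for this comparison. Of these 8, TraesCS2D02G204700 and TraesCS3A02G229700 stood in no table of shoots against roots. In roots no point is filled and only TraesCS6B02G258400 lies above 0.

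In roots, all 31 PAL genes were tested and 30 had a log2 fold change below 0, beside 51.4% of the 44737 genes tested. The median was −1.44, beside −0.02 for all genes, and 22 genes lay at −1 or below, beside 14.3% of all genes. In 23 of the 31 genes the salt-treated roots lay below the control roots without overlap, beside 20.2% of all genes. None of the 31 was called by limma, beside 3.47% of all genes. The authors' table of salt-treated against control roots, made with DESeq2, held 1 of them, TraesCS2B02G398400. Of the 30 from the tables of shoots against roots, 22 had an unadjusted p below 0.05 (31.4% of all genes). Of these 30, 4 had an adjusted p below 0.05 with a log2 fold change of 1 or more in size. That share is close to the 12% of all genes tested that met both. With each library scaled to the same total, the median of all genes moved to 0.12 in roots and 0.19 in shoots and that of the PAL genes to −1.31 in roots and −1.21 in shoots.

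After the 6B pair, the PAL gene with the highest mean count was TraesCS2B02G398400 (chromosome 2B, 565209774 to 565212553). It had 1213, 3506 and 3140 normalized counts in salt-treated roots, against 6758, 8027 and 5756 in control roots (log2 fold change −1.52, SE 0.40, adjusted p = 0.045 by limma). In shoots it had 285, 597 and 382 in salt-treated plants, against 899, 1393 and 937 in control plants (log2 fold change −1.39, adjusted p = 0.0145 by limma). The groups did not overlap in either organ.

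The largest fitted decrease in roots was again that of TraesCS1B02G048200, with 125, 833 and 930 normalized counts in salt-treated roots against 1623, 2461 and 2137 in control roots (log2 fold change −2.15, SE 0.71, adjusted p = 0.0859 by limma). Beside it, TraesCS1B02G048100 had 283, 1922 and 1749 in salt-treated roots against 3202, 5006 and 3600 in control roots (log2 fold change −1.97, adjusted p = 0.0978 by limma). In both genes replicate 1 of the salt-treated roots lay far below replicates 2 and 3. Nearest to a log2 fold change of −1 in roots were TraesCS4A02G401300 at −1.03 and TraesCS2D02G377200 at −0.98.

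**Figure D3:**
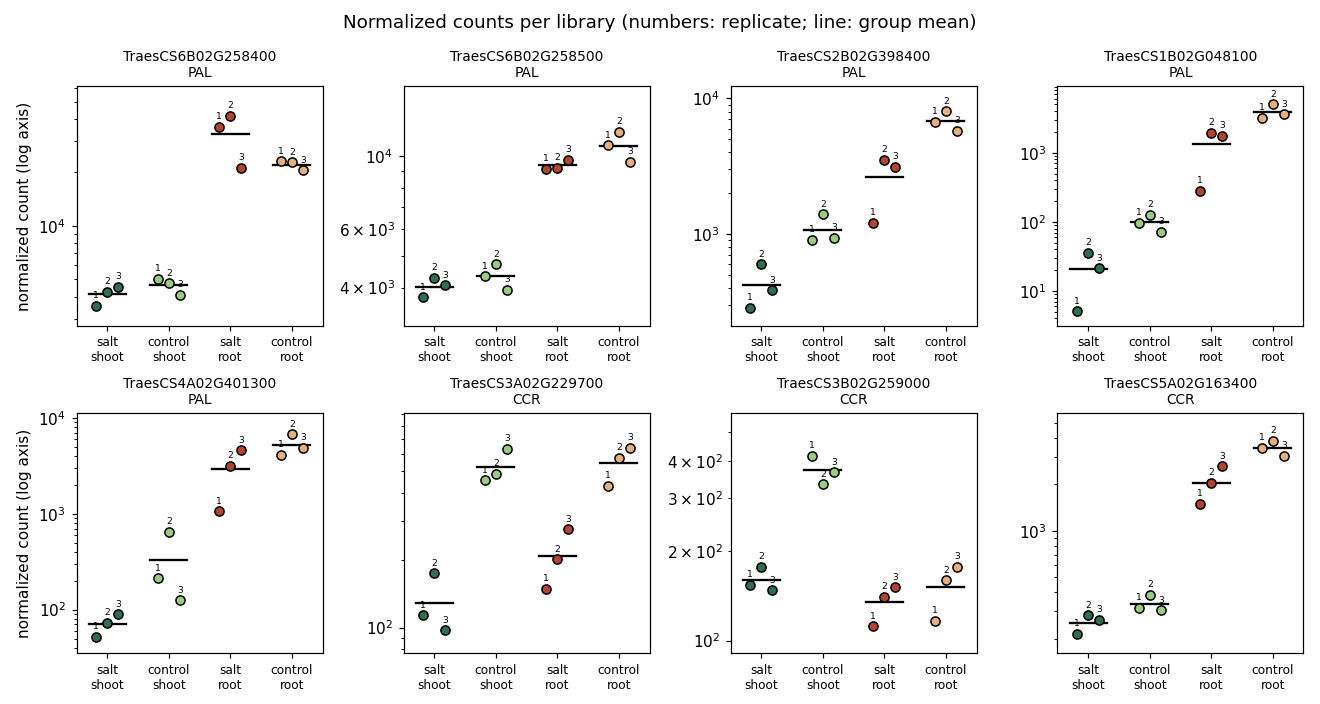
Normalized counts (log axis) of 5 PAL and 3 CCR genes in each library, with replicate numbers above the points and a line at each group mean. TraesCS6B02G258400 and TraesCS6B02G258500 overlap between salt-treated and control libraries in both organs, while TraesCS2B02G398400 and TraesCS1B02G048100 lie lower in salt-treated libraries in both, and salt-treated root replicate 1 is the lowest root library of both.

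By position, the PAL genes fell into 6 sets of like places on related chromosomes. The 9 genes in rows on 1A (20924887 to 20938081), 1B (28305997 to 28486349) and 1D (19012091 to 19025014) had log2 fold changes from −2.15 to −1.22 in roots, with no overlap between groups in all 9 (20.2% of all genes in roots were lower without overlap), and from −3.42 to −1.07 in shoots for the 7 tested. The 9 genes on 2A (624359166 to 624460956), 2B (564920332 to 565212553) and 2D (TraesCS2D02G377200) spanned −1.82 to −0.77 in shoots and −1.67 to −0.88 in roots. The 5 genes on 6A, 6B and 6D had the medians nearest to 0, −0.60 in shoots (from −1.20 to −0.10) and −0.22 in roots (from −1.16 to 0.52). Among them TraesCS6B02G258600, the next gene after TraesCS6B02G258500, had 101, 130 and 121 normalized counts in salt-treated shoots against 257, 372 and 205 in control shoots, and 436, 941 and 1456 in salt-treated roots against 1512, 2321 and 1924 in control roots. Its groups did not overlap in either organ, unlike those of its 2 neighbours on 6B. Differences between sets of genes were not tested.

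Libraries of 1 group also differed among themselves in PAL level. Replicate 1 was the lowest of the 3 salt-treated root libraries in 29 of the 31 PAL genes and in 27.6% of all genes. It lay a median of 1.61 below the mean of the other 2 libraries on the log2 scale over the PAL genes (value −1.61), against 0.02 over all genes. In salt-treated shoots replicate 1 was the lowest in 19 of the 23 PAL genes with enough counts and in 35.5% of all genes. Among the controls, replicate 2 was the highest shoot library in 22 of 30 PAL genes and the highest root library in 27 of 31, against 27.0% and 30.1% of all genes. The exceptions in salt-treated roots were TraesCS6B02G258400 and TraesCS6D02G212400, where replicate 3 was the lowest. The RNA integrity numbers in the quality report supplied with the paper, whose values are not repeated here, had the same order at these points: replicate 1 was the lowest in salt-treated shoots and in salt-treated roots, and replicate 2 the highest in control shoots and in control roots. Replicate 3 of the salt-treated roots was the highest library in 21 of the 31 PAL genes (37.5% of all genes). Replicate 2 of the salt-treated shoots was the highest in 18 of 23 (34.4%). Both also had the highest integrity number of their group. For the lowest library of the control groups the orders parted. In control roots replicate 3 had the lowest integrity number, while replicate 1 was the lowest library in 25 of the 31 PAL genes (37.1% of all genes). In control shoots replicate 1 had the lowest number. There replicate 3 was the lowest library in 15 of 30 PAL genes (34.2%) and replicate 1 in 12 (33.7%). The part of RNA integrity in the PAL values was not tested.

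The marker groups did not all follow this order. In salt-treated roots, in order of replicates 1, 2 and 3, laccase genes summed to 13202, 12598 and 11903 normalized counts, cellulose synthase genes to 21292, 24311 and 12284, fasciclin genes to 409, 502 and 805, root hair genes to 11.5, 15.8 and 135, and high-affinity nitrate transporter genes to 179, 386 and 175. Replicate 1 was thus the lowest for fasciclin and root hair genes only, and their part in the PAL values was not tested. Without salt-treated root replicate 1, 30 of the 31 PAL genes still lay below 0. The median moved to −0.82, and 9 genes lay at −1 or below, instead of 22. Without salt-treated shoot replicate 1, all 29 genes stayed below 0 and the median was −1.19.

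**Figure D4:**
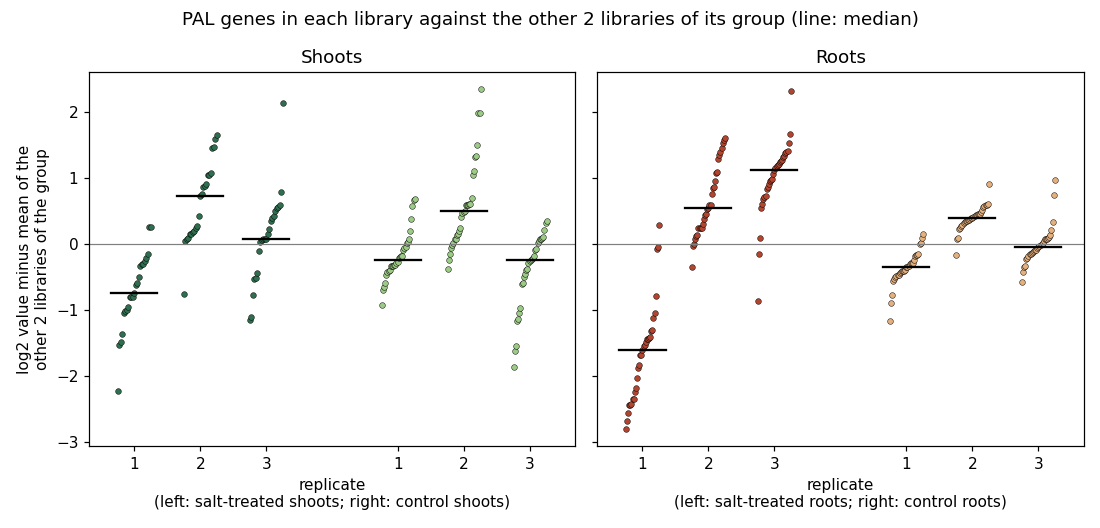
Each point is 1 PAL gene in 1 library, plotted as its log2(normalized count + 1) minus the mean of the other 2 libraries of its group, for genes with at least 10 normalized counts in at least 2 libraries of the group; lines are medians over genes. Replicate 1 of the salt-treated roots has a median of −1.61, and replicate 2 of both control groups lies above 0.

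The means of the 3 CCR genes also lay lower under salt in both organs. TraesCS3A02G229700 was chosen by the salt comparisons alone, so the counts are given for the other 2 genes. Of the organ tables, TraesCS3B02G259000 stood only in that of control plants, where it was higher in shoots. Its high control shoots thus bore on its choice. In shoots neither of the 2 genes overlapped between groups (20.2% of all genes were lower without overlap) and 1 was called lower (2.99% of all genes). In roots 1 of the 2 did not overlap (20.2%), and none was called by limma (3.47% of all genes), with 1 at an unadjusted p below 0.05 (31.4%). TraesCS3A02G229700 (chromosome 3A, 429542186 to 429546480) and TraesCS3B02G259000 (chromosome 3B, 416690441 to 416695531) are both described as members of a CCR-like family in defence response, and in rice a CCR is known to act in defence downstream of a Rac GTPase. TraesCS5A02G163400 (chromosome 5A, 350235884 to 350238460) is described as CCR without further words.

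TraesCS3B02G259000 had 154, 177 and 147 normalized counts in salt-treated shoots, against 415, 334 and 365 in control shoots, and was called lower there (log2 fold change −1.21, SE 0.16, adjusted p = 0.00237 by limma). In roots it had 112, 140 and 151 in salt-treated plants and 117, 159 and 177 in control plants, which overlapped (log2 fold change −0.16, adjusted p = 0.679 by limma). The shoot response minus the root response was −1.06 (adjusted p = 0.0392 by limma), which did not pass 0.01. The control shoots, whose high values bore on the choice of this gene, enter both the shoot p and this p. Neither is free of the choice. In shoots its adjusted p ran from 0.00167 to 0.0119 over the alternatives, and it was not called without salt shoot replicate 1 or control shoot replicates 2 or 3.

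TraesCS3A02G229700, chosen through its salt response, had 113, 175 and 97.2 normalized counts in salt-treated shoots and 455, 488 and 633 in control shoots. In roots it had 149, 202 and 275 in salt-treated plants and 432, 574 and 636 in control plants. Salt-treated and control libraries did not overlap in either organ, with log2 fold changes of −2.05 in shoots and −1.41 in roots.

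TraesCS5A02G163400 was the CCR gene with the highest counts, and these were in roots. It had 214, 283 and 266 normalized counts in salt-treated shoots and 317, 386 and 306 in control shoots (log2 fold change −0.40, SE 0.17, adjusted p = 0.157 by limma). In roots it had 1501, 2046 and 2624 in salt-treated plants and 3449, 3850 and 3056 in control plants (log2 fold change −0.78, SE 0.23, adjusted p = 0.0652 by limma). The groups did not overlap in either organ, although neither difference was called.

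The salt responses of the organs were set side by side for the 29 PAL genes tested in both. The decrease was larger in shoots for 18 and larger in roots for 11, and the 2 log2 fold changes had a Pearson correlation of 0.68 across genes, which are neighbours and copies and not independent. This balance rested on single libraries. Without salt-treated root replicate 1 the decrease was larger in shoots for 26 and in roots for 3, and without salt-treated root replicate 3, or without salt-treated shoot replicate 1, it was larger in shoots for 14 and in roots for 15. Of the 34 genes, none was called for a difference between the responses by limma, beside 2.13% of all genes, and 2 had an unadjusted p below 0.05, beside 19.9% of all genes. Without salt-treated root replicate 1 again none was called by limma, and 10 had an unadjusted p below 0.05, beside 17.2% of all genes. The differences of PAL genes ran from −1.78 for TraesCS1B02G048500, which had 0, 11.1 and 2.1 normalized counts in salt-treated shoots, to 0.90 for TraesCS2B02G398100.

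Shoots against roots is the comparison by which most of the genes were chosen, and its values are given as a description. All 31 PAL genes had log2 fold changes below 0, from −7.73 to −1.09 among salt-treated plants (51.5% of all genes tested lay below 0) and from −6.45 to −0.96 among control plants (52.6%). The shoots lay below the roots without overlap in 25 of the 31 among salt-treated plants (27.9% of all genes) and in all 31 among control plants (30.2%). These counts, and those that follow, restate the choice of the genes, and nothing is read from them. By the same thresholds, 20 PAL genes would be called lower in shoots of salt-treated plants (12.3% of all genes tested) and 30 in shoots of control plants (16.7%).

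The values are given by position, and differences between positions were not tested. In control plants, the 9 genes in rows on 1A, 1B and 1D had log2 fold changes from −6.45 to −3.94 and the 3 genes on 4A and 5B from −5.88 to −4.30. TraesCS4A02G401300 (chromosome 4A, 675283030 to 675285827), for example, had 51.7, 72.5 and 89.6 normalized counts in salt-treated shoots against 1063, 3177 and 4592 in salt-treated roots, and 211, 647 and 125 in control shoots against 4093, 6691 and 4821 in control roots. Elsewhere the organs lay closer, from −1.71 to −1.44 for TraesCS1A02G094900 and TraesCS1D02G103500, from −1.27 to −0.96 for TraesCS2B02G224000, TraesCS2B02G224300 and TraesCS2D02G204700, from −2.85 to −1.12 for the 9 further genes on chromosomes 2 and from −3.43 to −1.18 for those on chromosomes 6.

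**Figure D5:**
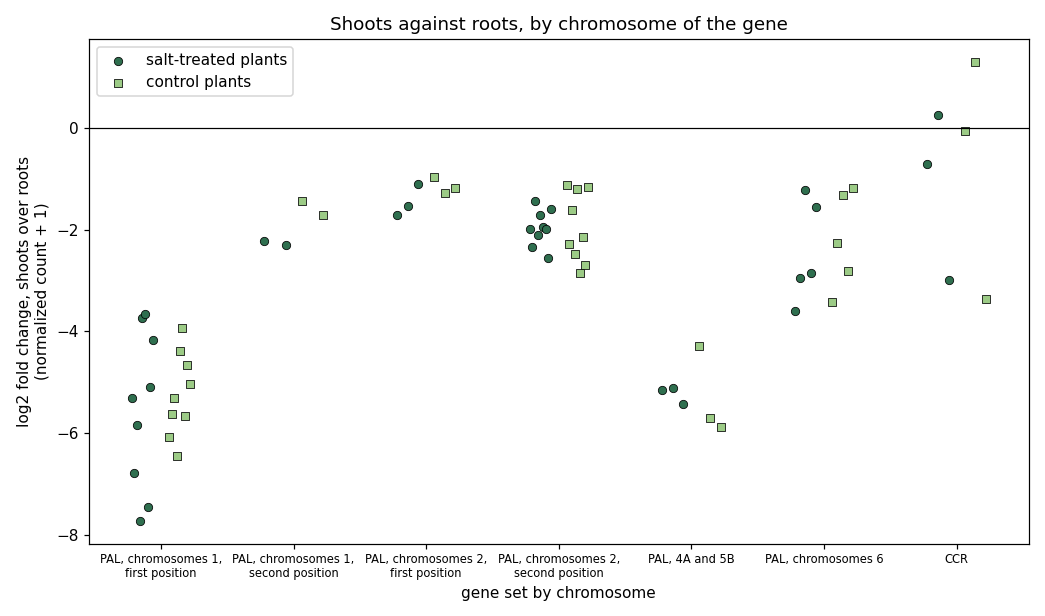
Log2 fold change of shoots over roots for each gene, among salt-treated plants (circles) and control plants (squares), with PAL genes grouped by chromosome and position and CCR genes at the right. In control plants the first position on chromosomes 1 and the genes on 4A and 5B lie between −6.45 and −3.94, and CCR gene TraesCS3B02G259000 is the highest square, at 1.31.

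Among CCR genes, TraesCS5A02G163400 was lower in shoots, with log2 fold changes of −2.98 in salt-treated plants and −3.36 in control plants. TraesCS3B02G259000 was higher in shoots of control plants, at 1.31, with no overlap (29.3% of all genes were higher without overlap), and at 0.25 in salt-treated plants the organs overlapped. TraesCS3A02G229700 had values of −0.70 in salt-treated plants and −0.05 in control plants, with overlap in both.

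Other steps of the pathway were read from the same descriptions, which gave 27 genes. Of these, 16 supply phenylalanine, 2 are 4-coumarate-CoA ligase-like and 5 are described as chalcone-flavonone isomerase family proteins. Caffeoyl-CoA O-methyltransferase, cinnamyl alcohol dehydrogenase, chalcone synthase and flavanone hydroxylase have 1 gene each. A call in 1 of the 4 tables was needed here as well, so the counts describe the list. Searches for cinnamate 4-hydroxylase, hydroxycinnamoyltransferase, caffeoyl shikimate esterase, coumarate 3-hydroxylase, caffeic acid O-methyltransferase and ferulate 5-hydroxylase found no gene by description. These steps are therefore not covered. In shoots 25 were tested, 3 were called lower (2.99% of all genes) and 2 higher (2.3% of all genes), with a median log2 fold change of 0.06. In roots 20 were tested, 2 were called lower (2.3% of all genes) and 0 higher (1.17% of all genes), with a median of −0.61.

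The chalcone synthase gene, of the flavonoid branch, and 2 of 5 genes of the chalcone isomerase family were called lower in shoots (2.99% of all genes). The family name alone does not place these 5 genes in the flavonoid branch. Chalcone synthase gene TraesCS2B02G038700, whose enzyme takes cinnamoyl-type CoA esters into flavonoids, had 112, 145 and 128 normalized counts in salt-treated shoots against 909, 850 and 904 in control shoots (log2 fold change −2.79, adjusted p = 6.58e-05 by limma). Chalcone isomerase family gene TraesCS5A02G475600 fell in both organs, by 1.25 in shoots and by 1.78 in roots on the log2 scale. TraesCS5B02G488900, of the same family, had a log2 fold change of −1.20 in shoots, also called (adjusted p = 0.00219 by limma). All 3 salt-treated shoot libraries lay below the controls in each of them. Cinnamyl alcohol dehydrogenase gene TraesCS7A02G350500 went the other way and was not called. It had 1005, 1238 and 358 normalized counts in salt-treated shoots against 262, 144 and 149 in control shoots (log2 fold change 2.10).

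Of the phenylalanine supply, 2 of 15 genes tested were called higher in shoots (2.3% of all genes). They were TraesCS1B02G229700, for the aldolase that opens the shikimate pathway, with 731, 602 and 486 normalized counts in salt-treated shoots against 273, 219 and 266 in control shoots (log2 fold change 1.25, adjusted p = 0.00412 by limma), and TraesCS5B02G372500, for an arogenate dehydratase that makes phenylalanine, with 791, 828 and 876 in salt-treated shoots against 437, 385 and 320 in control shoots (log2 fold change 1.14, given without a p because this comparison alone put it on the list). A 4-coumarate-CoA ligase-like gene, TraesCS4A02G036200, fell in roots to 71.9, 115 and 114 in salt-treated roots, against 272, 315 and 284 in control roots (log2 fold change −1.55, adjusted p = 0.0078 by limma). In shoots it had 314, 414 and 410 in salt-treated plants and 229, 203 and 114 in control plants, and the difference between its responses, 2.66, was called (adjusted p = 0.00199 by limma).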

How the data were processed

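Total RNA of 12 root and shoot samples was made into poly(A), non-directional libraries. The authors trimmed reads with Trimmomatic 0.36 after FastQC 11.8 and estimated transcript abundance with Salmon 0.12.0 (versions as in the submitters' processing notes), then used tximport and DESeq2. The deposited table holds a normalized count per gene and library, treated as a signal: an estimate divided by the authors' factors, from which whole reads were not recovered, so no counting interval is given and precision rests on 3 libraries a group. The deposited comparison tables also hold the authors' mean, fold change, error, statistic and p-values, which were not used; only identifiers, positions and descriptions were. Groups came from the sample labels, and 0 library columns were left out.

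Log2(normalized count + 1) was fitted with limma 3.58.1 (R 4.3.3), with empirical Bayes moderation and a variance trend, a filter of 10 normalized counts or more in 3 or more libraries of the comparison, and Benjamini-Hochberg adjustment over all genes fitted. DESeq2 was not run, as the table holds no counts. The procedure was tested on simulated data. Figures were drawn with matplotlib 3.10.9. Genes named were the 3 with the highest mean count per family, up to 5 largest called changes, those nearest the fold threshold and their neighbours and copies on related chromosomes. The genes and lists were chosen with earlier results of these data known. Where the labels number replicates alike, same-numbered control shoots and control roots deviated together (correlations 0.13, 0.19 and 0.31, all above a limit of 0.1). This is a hint from the data that the numbers pair these samples, which the labels do not state. The main fits used no pairing in any comparison, and only the replicate block among the alternatives put the replicate number into the fit. Alternatives were an adjusted p of 0.05, no fold threshold, pseudocounts of 0.1 and 10, no filter, a mean of at least 50, equal library totals, a replicate block, all 12 libraries in 1 fit, no variance trend and each library left out. No sequences are shown, as none of the identifiers matched the reference table at hand. Whether replicates came from separate sowings is not given in the sources used here, so p-values measure the spread between these samples.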

Additional observations from a re-analysis of the deposited data

How the results depend on the processing

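The direction of the log2 fold change under salt held in every alternative run, for the 34 genes tested in roots and the 32 tested in shoots, except that in shoots scaling to the same total turned TraesCS6B02G258400 to 0.0416 and TraesCS6B02G258500 to 0.109. Calls moved more. In roots, an adjusted p threshold of 0.05 gave 4 PAL genes and 1 CCR gene (12% of all genes). All 12 libraries in the fit gave 1 CCR gene (8.29% of all genes), where the main count was 0 for both families (3.47% of all genes). Leaving out 1 library gave 0 to 1 PAL genes and 0 to 1 CCR genes, the 1 without salt root replicate 3 (5.8% of all genes). In shoots, 6 PAL genes were called, 1 of them chosen by this comparison alone (5.28% of all genes in either direction, as are the shares that follow). These became 16 at a threshold of 0.05 (10.2%), 3 with all 12 libraries in the fit (4.72%) and 3 without the variance trend (2.89%). Leaving out 1 library gave 0 to 7. The 0 was without control shoot replicate 2 (2.01%) and the 7 without salt shoot replicate 2 (3.63%). There were 1 without control shoot replicate 3 (2.39%) and 2 without control shoot replicate 1 (3.65%) or salt shoot replicate 1 (2.34%). Without salt shoot replicate 3 there were 3 (3.32%). The 2 CCR genes became 1 to 2. The 21 genes lower in shoots than roots of salt-treated plants (29.8%) became 13 to 22 when 1 library was left out. There were 13 without salt root replicate 2 (23.9%) or 3 (25.2%) and 22 without salt root replicate 1 (22.2%). A threshold of 0.05 gave 27 (35.6%), all 12 libraries in the fit 27 (32.8%) and equal totals 24 (34.1%). The difference between responses gave 1 gene at 0.05 (5.98% of all genes). The cause of these moves was not tested.

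With the replicate block, 9 PAL and 2 CCR genes were called in shoots (5.44% of all genes in either direction) and 0 in roots (0.637%). In shoots against roots, 31 PAL and CCR genes were called in control plants (37.7% of all genes) and 27 in salt-treated plants (29.8%). Correlations of same-numbered samples were −0.01 to 0.10 in roots and 0.01 to 0.05 in shoots for salt against control, where the samples share only a number. Between the organs of salt-treated plants they were 0.26, 0.19 and 0.07, so 1 pair missed the limit of 0.1, although each sample correlated best with its own number. The paper describes both organs as taken from the same plants without saying that the numbers match, so pairing there is a hint from the data, and the block gave 27 genes against 21. In control plants, where pairing likewise rests on the correlations alone, the block changed the count from 32 to 31. Over all genes, the calls were 1553 in roots and 2359 in shoots, and 285 and 2427 with the block; without control root replicate 2 no gene was called in roots by limma, with 9967 at an unadjusted p below 0.05. Values of a few normalized counts in shoots limit the genes on 1A, 1B, 1D and 5B, and TraesCS2D02G377200 on 2D. The log2 fold change of TraesCS2D02G377200 in shoots was −1.52 with a pseudocount of 0.1 and −0.87 with 10.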

Other observations

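Inside the row of 4 PAL genes on chromosome 2B lies TraesCS2B02G398300, which stands in a comparison table without a description and was not among the 34 genes. It had 76.1, 184 and 116 normalized counts in salt-treated shoots against 298, 267 and 253 in control shoots, and 439, 2198 and 1767 in salt-treated roots against 3143, 4070 and 4004 in control roots. Its groups did not overlap in either organ, and replicate 1 was its lowest library in salt-treated shoots and in salt-treated roots. The 2 identifiers that lie between PAL genes TraesCS2B02G224000 and TraesCS2B02G224300, TraesCS2B02G224100 and TraesCS2B02G224200, had 8.6 to 13.9 and 100.2 to 143 normalized counts in salt-treated shoots and 0 to 10.6 and 107 to 148 in control shoots, and 17.6 to 23.7 and 105 to 126 in salt-treated roots and 6.5 to 13.4 and 108 to 193 in control roots. These 3 identifiers were chosen after their values were seen.

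Some arogenate dehydratase genes, of the step that makes phenylalanine, showed the low value of salt-treated root replicate 1 that most PAL genes had. TraesCS2A02G291900 had 88.7, 548 and 720 normalized counts in salt-treated roots against 1066, 1491 and 1688 in control roots, and TraesCS2B02G308400 had 181, 692 and 970 against 1292, 1308 and 1420. Neither was called (adjusted p = 0.0959 and 0.129 by limma). TraesCS5B02G372500, of the same enzyme, had 541, 520 and 526 in salt-treated roots and 497, 423 and 380 in control roots, with replicate 1 the highest. The genes were picked after their values were seen, and no test was run on the likeness.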
